A study of Saccharomyces cerevisiae with 17 samples.

Results

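The genes described here encode the enzymes by which budding yeast (Saccharomyces cerevisiae) makes riboflavin (vitamin B2) and turns it into the flavin cofactors FMN and FAD. They are RIB1 (YBL033C), RIB7 (YBR153W), RIB2 (YOL066C), RIB3 (YDR487C), RIB4 (YOL143C), RIB5 (YBR256C), FMN1 (YDR236C) and FAD1 (YDL045C), 8 of the 6692 genes in the count table. The set was drawn up from the pathway after RIB4 had been seen at a low level in the deletion strains, so the members were chosen by the CPM of RIB4 in the deletions against wild type. The values of RIB4 against wild type are therefore given as a description with no test, and the question is what its 7 pathway neighbours did. All 8 had enough reads to be tested.

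Riboflavin is built from GTP and ribulose 5-phosphate. Rib1, a GTP cyclohydrolase, opens the GTP branch, which the reductase Rib7 and the deaminase Rib2 continue, and Rib3 makes the small sugar-derived partner. Rib4, lumazine synthase, joins both branches, and Rib5, riboflavin synthase, makes riboflavin from its product. Fmn1, riboflavin kinase, then forms FMN, and Fad1, FAD synthetase, forms FAD, the cofactors of many dehydrogenases and oxidases.

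Poly(A) RNA was sequenced from BY4741, a haploid MATa laboratory strain, carrying the plasmid pRS415 and grown in SD-LEU (synthetic medium lacking leucine) to mid-log phase. There were 3 libraries of upf1Δ (upf1delta::KlURA3), 6 of nmd4Δ (nmd4delta::KlURA3), 3 of ebs1Δ (ebs1delta::KlURA3) and 5 of wild type, which carries the plasmid only. Upf1 is the core helicase of nonsense-mediated mRNA decay (NMD), which degrades mRNAs with early stop codons, and its partners include Nmd4 and Ebs1. The KlURA3 marker is in every deletion strain and in no wild type library, so marker and deletion cannot be told apart in any comparison with wild type, RIB4 included. Comparisons between deletions do not have this difference.

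The total of reads counted in genes ran between 19.75 and 29.67 M per library in the 11 of batch 1. It ran between 40.37 and 59.48 M in the 6 of batch 2, which are nmd4Δ and wild type only. The deleted genes checked the labels. NAM7, the table's name for UPF1, had 5 to 59 reads in upf1Δ and 4535 to 10325 in wild type. In nmd4Δ the reads of NMD4 numbered 17 to 61, against 805 to 1765 in wild type, and in ebs1Δ those of EBS1 numbered 0 to 1, against 3325 to 6950 in wild type. The labels call the libraries biological replicates, yet 5 of the 6 libraries of batch 2 each matched 1 batch 1 library of their genotype, with residual correlations of 0.678 to 0.882 over 4064 genes, against 0.426 at most with any other. Residuals were taken from each genotype's mean within its batch. Wild type has 2 libraries in batch 1, so their residuals are exact opposites and its 2 matches are not independent. The match of wild type replicates 2 and 4 (0.678, against 0.426 with the remaining library) is therefore less certain. Matched libraries were averaged first, which left 3 sets per genotype, and each mean ± SD is over those 3 sets (n = 3). The fits below took the libraries as separate, so p-values in comparisons with nmd4Δ or wild type may be too small. The calls of the pathway genes that end when matched libraries are summed are named.

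RIB4 was the lowest of its pathway relative to wild type in all 3 deletion strains. Levels are given as CPM, a gene's reads per M counted reads of the library after scaling by the TMM method. RIB4 had 133, 140.2 and 137.2 CPM in the upf1Δ libraries. In nmd4Δ its lowest, median and highest values were 119.2, 123.6 and 125.2 CPM. It had 130.7, 115.1 and 117.4 CPM in ebs1Δ, against 598.7, 527.7, 588.3, 520.9 and 538.9 CPM in wild type. The 12 deletion libraries thus lay in a narrow band far below every wild type library.

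The means of RIB4 were 136.8 ± 3.63 CPM in upf1Δ, 122.8 ± 1.19 CPM in nmd4Δ, 121.1 ± 8.44 CPM in ebs1Δ and 552.2 ± 36.5 CPM in wild type (SD, n = 3 each). The fitted log2 fold changes against wild type, a description since they chose the list, were -2.04 ± 0.0632 (SE) in upf1Δ, -2.18 ± 0.0459 in nmd4Δ and -2.21 ± 0.0637 in ebs1Δ. On a linear scale they are 0.243, 0.221 and 0.216 of the wild type level. Among the 6162 genes tested, RIB4 was the 12th lowest in upf1Δ and the 6th lowest in both nmd4Δ and ebs1Δ. Of all tested genes, 0.633% were called lower by 2-fold or more in upf1Δ, 0.373% in nmd4Δ and 0.26% in ebs1Δ. In nmd4Δ the log2 fold change was -2.19 within batch 1 and -2.17 within batch 2, though the batches hold matched libraries and are not independent.

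**Figure D1:**
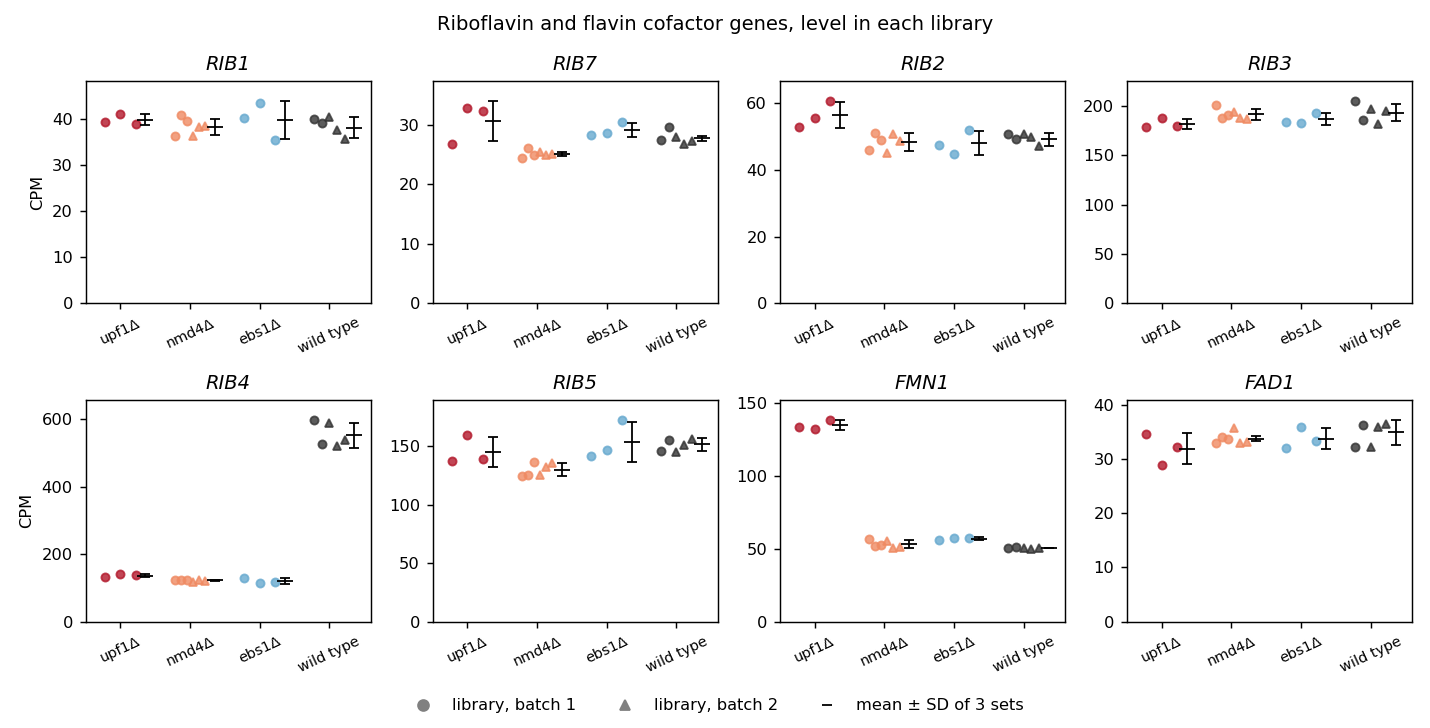
Level of each of the 8 genes in CPM (y axes from 0, a scale per gene) in the libraries of upf1Δ, nmd4Δ, ebs1Δ and wild type; circles are batch 1, triangles batch 2, and the bar beside each group is the mean ± SD of 3 sets of matched libraries. RIB4 lies at 115.1 to 140.2 CPM in the deletion libraries and at 520.9 to 598.7 CPM in wild type, FMN1 stands apart in upf1Δ, and the other 6 genes stay close to wild type.

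None of the other 7 genes was near that fall in any deletion strain. The lowest of their 21 log2 fold changes against wild type was that of RIB5 in nmd4Δ, at -0.21. In upf1Δ, 2 of the 7 were called higher and 0 lower by edgeR's quasi-likelihood test (adjusted p under 0.05 over all genes), while 36.4% of all tested genes were called higher and 35.1% lower. In nmd4Δ, 0 were called higher and 2 lower, against 13.6% and 14.4% of all genes. In ebs1Δ, 1 was called higher and 0 lower, against 14% and 7.38% of all genes. The counts of 0 were also 0 by edgeR at an unadjusted p under 0.05, and by limma voom at an adjusted p under 0.05. DESeq2, at the same adjusted p, gave 0 except for 1 gene, RIB3, called lower in upf1Δ. The medians of the 7 log2 fold changes were 0.02 in upf1Δ, -0.03 in nmd4Δ and 0.02 in ebs1Δ, and those of all tested genes were -0.02, -0.001 and -0.006.

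**Figure D2:**
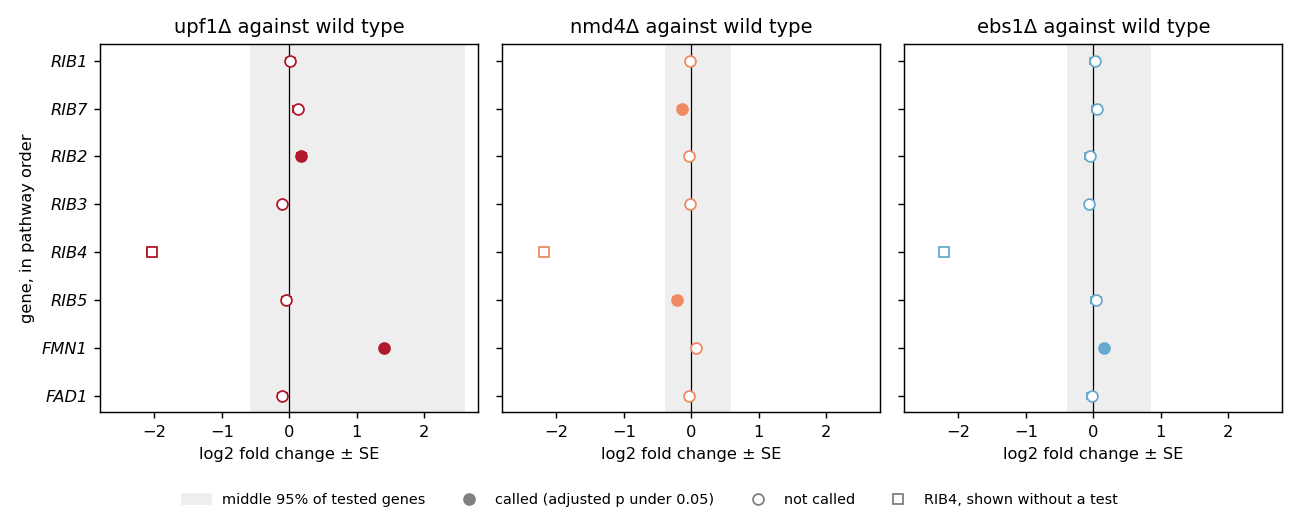
Log2 fold change ± SE against wild type (x axis) of the 8 genes in pathway order (y axis, first step at the top) in upf1Δ, nmd4Δ and ebs1Δ; filled circles were called at an adjusted p under 0.05, open circles were not, open squares are RIB4 without a test, and the grey band holds the middle 95% of tested genes. RIB4 lies near -2 in each panel, outside the band, and FMN1 in upf1Δ is at 1.40, inside the band.

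The genes of the GTP branch stayed close to wild type. RIB1, the entry enzyme, averaged 39.86 ± 1.18 CPM in upf1Δ, 38.31 ± 1.71 CPM in nmd4Δ, 39.83 ± 4.06 CPM in ebs1Δ and 38.15 ± 2.25 CPM in wild type (SD, n = 3 each). Its log2 fold changes were 0.02 (95% interval -0.12 to 0.16), -0.02 (-0.12 to 0.08) and 0.02 (-0.12 to 0.16). No library group of RIB1 was separate from wild type.

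RIB7, the reductase, had 26.8, 32.83 and 32.35 CPM in upf1Δ. Its lowest, median and highest values in nmd4Δ were 24.42, 25.08 and 26.13 CPM. It had 28.31, 28.67 and 30.54 CPM in ebs1Δ, against 27.55, 29.69, 27.95, 26.73 and 27.31 CPM in wild type. All nmd4Δ libraries were below all wild type libraries, by a log2 fold change of -0.15 ± 0.048 (edgeR adjusted p = 0.03). The call was lost in batch 1 alone, in batch 2 alone, with matched sets as a block (limma voom adjusted p = 0.27) and with matched libraries summed (edgeR adjusted p = 0.195), and also without any 1 of wild type replicates 2, 3 and 4 or nmd4Δ replicates 1, 3 and 5 (adjusted p = 0.0505 to 0.155). It was not called in upf1Δ (0.12 ± 0.0655) or ebs1Δ (0.05 ± 0.066).

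RIB2, the deaminase, had 52.95, 55.69 and 60.62 CPM in upf1Δ. In nmd4Δ it ranged between 45.05 and 51.03 CPM with a median of 48.92 CPM, and in ebs1Δ it had 47.59, 44.87 and 51.93 CPM. Wild type libraries had 50.69, 49.15, 50.89, 49.78 and 47.18 CPM. The upf1Δ libraries lay above all wild type ones, and RIB2 rose by a log2 fold change of 0.18 ± 0.0635 (edgeR adjusted p = 0.018). Without upf1Δ replicate 3, the highest library, the adjusted p was 0.184, and it was 0.0675 without wild type replicate 2, 0.0663 in batch 1 alone and 0.0558 in a fit of only these genotypes.

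RIB3, which supplies the sugar-derived substrate that Rib4 uses, averaged 181.7 ± 4.89 CPM in upf1Δ, 191.4 ± 5.5 CPM in nmd4Δ, 186.5 ± 5.91 CPM in ebs1Δ and 193.2 ± 8.9 CPM in wild type (SD, n = 3 each). Its log2 fold changes were -0.10 ± 0.0519, -0.01 ± 0.0385 and -0.06 ± 0.0519, and none was called by edgeR (adjusted p = 0.0849, 0.826 and 0.405). DESeq2 called the first (log2 fold change -0.11, adjusted p = 0.0298), and edgeR called it without wild type replicate 2 or 4, upf1Δ replicate 2 or ebs1Δ replicate 2 or 3 (adjusted p = 0.0195 to 0.0329). RIB3 was the steadiest of the 8, with a root mean square deviation of 0.0552 on the log2 CPM scale over the 17 libraries, against a median of 0.143 over all genes ranked.

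RIB5, whose enzyme acts directly after Rib4, had 137, 159.8 and 138.6 CPM in upf1Δ and a lowest, median and highest value of 124.1, 128.8 and 136.1 CPM in nmd4Δ. It had 141.3, 146.6 and 172.5 CPM in ebs1Δ, against 145.6, 155.4, 145.1, 150.6 and 156.2 CPM in wild type. The nmd4Δ libraries were all below wild type, and RIB5 fell by 0.21 ± 0.0536 on the log2 scale (edgeR adjusted p = 0.00752). That is 0.863 of the wild type level, where RIB4 was at 0.221. The call was lost in batch 1 alone (adjusted p = 0.206) and with matched libraries summed (adjusted p = 0.11), and held with matched sets as a block (limma voom adjusted p = 0.0454). In upf1Δ (-0.04 ± 0.0722) and ebs1Δ (0.04 ± 0.0722) its libraries overlapped wild type.

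FMN1, the kinase that commits riboflavin to cofactor, rose in upf1Δ while RIB4 was low there. It had 133.6, 131.7 and 138.3 CPM in upf1Δ. Its lowest, median and highest values in nmd4Δ were 50.58, 52.33 and 56.48 CPM. It had 55.8, 57.07 and 57.66 CPM in ebs1Δ, against 50.73, 51.13, 50.22, 49.6 and 50.31 CPM in wild type. The upf1Δ libraries stood far above all others, whereas the nmd4Δ libraries overlapped wild type.

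The log2 fold change of FMN1 against wild type was 1.40 ± 0.0455 in upf1Δ, a level 2.63 times that of wild type (edgeR adjusted p = 2.17e-15), and it held under each alternative run. It was 0.07 ± 0.0343 in nmd4Δ (adjusted p = 0.125). In ebs1Δ it was 0.15 ± 0.0466 (edgeR adjusted p = 0.0235), with all 3 libraries above wild type. That call was lost without wild type replicate 1, ebs1Δ replicate 2 or ebs1Δ replicate 3, in batch 1 alone and in a fit of only these genotypes (adjusted p = 0.0601 to 0.114). The test between deletions called FMN1 in both comparisons with upf1Δ. It was lower in nmd4Δ than in upf1Δ by a log2 fold change of -1.33 ± 0.0424 (edgeR adjusted p = 1.87e-15) and lower in ebs1Δ than in upf1Δ by -1.24 ± 0.0461 (adjusted p = 4.11e-14). Between nmd4Δ and ebs1Δ the log2 fold change was -0.08 ± 0.044 (adjusted p = 0.17).

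The genes beside FMN1, looked at after its values were seen, did not rise to that extent in upf1Δ. PRP42, a splicing factor gene that converges on FMN1 with 97 bases between the coding regions, had a log2 fold change of 0.25 ± 0.0518 (edgeR adjusted p = 0.000295). MRPL7 and SEC26 on the other side fell by 0.23 ± 0.0501 and 0.43 ± 0.0458, and LYS4 was at 0.04 ± 0.0707. No member overlaps another gene of the RefSeq annotation, and each has 1 coding segment. FAD1, the last enzyme, averaged 31.9 ± 2.81 CPM in upf1Δ, 33.74 ± 0.516 CPM in nmd4Δ, 33.72 ± 1.91 CPM in ebs1Δ and 34.89 ± 2.32 CPM in wild type (SD, n = 3 each). None of its log2 fold changes against wild type (-0.10 ± 0.0688, -0.03 ± 0.0498 and -0.02 ± 0.0688) was called.

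Compared per coding length, RIB4 was the most abundant of the 8 mRNAs in wild type and not in the deletions. It had 268.2 ± 7.12 CPM per kb in upf1Δ, 240.8 ± 2.34 in nmd4Δ, 237.4 ± 16.6 in ebs1Δ and 1083 ± 71.5 in wild type (SD, n = 3 each). RIB3 led in each deletion, with 289.8 CPM per kb in upf1Δ, 305.2 in nmd4Δ and 297.5 in ebs1Δ, and was second in wild type with 308.1. The ranges of RIB3 and RIB4 did not overlap within any genotype. RIB4 also lay above RIB5 without overlap in upf1Δ, nmd4Δ and wild type, while in ebs1Δ their ranges overlapped. RIB4 made up 24.1 ± 0.104% of the summed level per length of the 8 genes in upf1Δ, 25.5 ± 0.357% in nmd4Δ, 24.3 ± 1.88% in ebs1Δ and 59.5 ± 1.41% in wild type.

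Below these came RIB5, at 181.1 to 214.1 CPM per kb as group means, and FMN1, at 204.7 in upf1Δ, 80.79 in nmd4Δ, 86.52 in ebs1Δ and 76.69 in wild type. In upf1Δ the ranges of FMN1 and RIB5 overlapped, whereas in the other genotypes RIB5 was clearly above FMN1. RIB1, RIB7, FAD1 and RIB2 formed the low end, with group means of 27.1 to 41.71 CPM per kb, and RIB2 was last in every genotype. Among RIB1, RIB7 and FAD1, ranges of neighbours in the order of means overlapped in ebs1Δ and wild type. In upf1Δ RIB7 overlapped RIB1 and FAD1, and FAD1 overlapped RIB2. In nmd4Δ RIB1 overlapped FAD1 and RIB7.

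**Figure D3:**
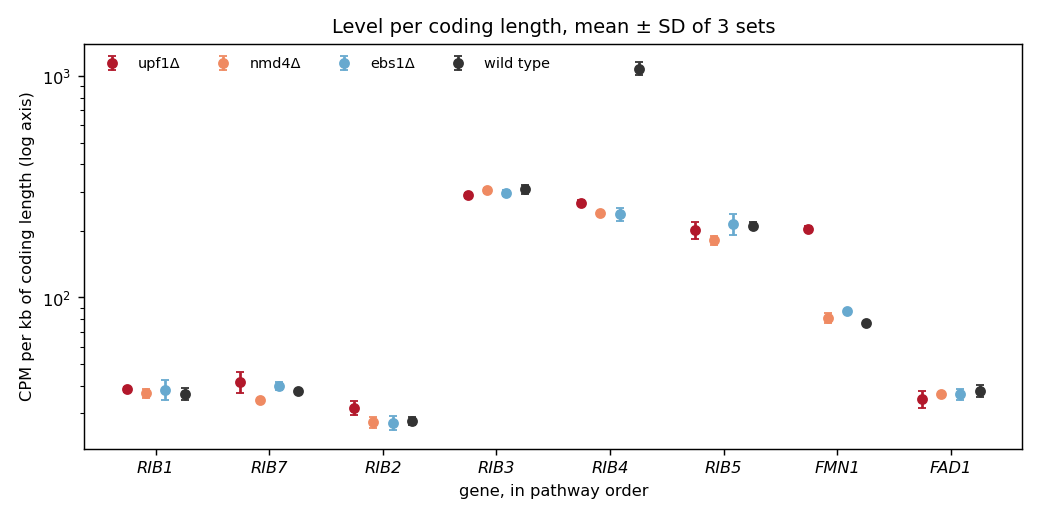
Level per coding length (CPM per kb, log axis) of the 8 genes in pathway order in upf1Δ, nmd4Δ, ebs1Δ and wild type, as mean ± SD of 3 sets of matched libraries. RIB4 stands at 1083 in wild type and at 237.4 to 268.2 in the deletions, just under RIB3, and FMN1 in upf1Δ reaches the level of RIB5.

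Between deletion strains, where the marker is shared, differences among the 8 genes were small apart from FMN1. In nmd4Δ against upf1Δ, 5 of the 8 were called lower and 0 higher, while 36% of all tested genes were called lower and 30.9% higher. In ebs1Δ against upf1Δ, 3 were called lower and 0 higher (33.8% and 27.4% of all genes), and in nmd4Δ against ebs1Δ, 2 were called lower and 0 higher (16% and 10% of all genes). Without RIB4, which chose the list, 4, 2 and 2 of the other 7 were called lower in these 3 comparisons. The counts of 0 stayed 0 by edgeR at an unadjusted p under 0.05. They also stayed 0 by limma voom and DESeq2 at an adjusted p under 0.05, except that DESeq2 called 1 gene, RIB3, higher in nmd4Δ than in upf1Δ.

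RIB4 itself differed little between deletions. RIB4 was chosen from the same deletion libraries, though by their values against wild type and not against each other. It was lower in nmd4Δ than in upf1Δ by a log2 fold change of -0.14 ± 0.0574 (edgeR adjusted p = 0.0372) and lower in ebs1Δ than in upf1Δ by -0.18 ± 0.0612 (adjusted p = 0.0183), with no overlap of libraries in either pair. The first call was lost in 15 of 27 alternatives, among them DESeq2 (adjusted p = 0.051), matched libraries summed (adjusted p = 0.0541) and leaving out any 1 upf1Δ library, wild type replicate 2 or 4, nmd4Δ replicate 1, 2 or 3, or ebs1Δ replicate 2 or 3. The second was lost in 5 of 27, namely with only these genotypes and without upf1Δ replicate 2 or 3 or ebs1Δ replicate 2 or 3 (adjusted p = 0.0703 to 0.127). Between nmd4Δ and ebs1Δ the log2 fold change was 0.04 (95% interval -0.09 to 0.16). RIB2 was lower in nmd4Δ than in upf1Δ (-0.21 ± 0.0599, edgeR adjusted p = 0.00447) and in ebs1Δ than in upf1Δ (-0.23 ± 0.0641, adjusted p = 0.00458). Both calls were lost without upf1Δ replicate 3 (adjusted p = 0.0961 and 0.0583). RIB7 was lower in nmd4Δ than in upf1Δ (-0.27 ± 0.0622, adjusted p = 0.000938) and than in ebs1Δ (-0.20 ± 0.0628, adjusted p = 0.0307), and RIB5 likewise (-0.17 ± 0.0681, adjusted p = 0.036, and -0.25 ± 0.0681, adjusted p = 0.015). The difference of RIB7 from upf1Δ held in all 27 alternatives. Its difference from ebs1Δ was lost in 6 and those of RIB5 in 12 and 3, batch 1 alone among them each time. Both RIB5 differences were also lost with matched libraries summed (edgeR adjusted p = 0.123 from upf1Δ and 0.0573 from ebs1Δ). That of RIB5 from ebs1Δ was lost without ebs1Δ replicate 3 as well (edgeR adjusted p = 0.115). The RIB5 difference from upf1Δ was -0.07 without upf1Δ replicate 2 (edgeR adjusted p = 0.41) and was lost with DESeq2 (adjusted p = 0.051). That of RIB7 from ebs1Δ was lost with matched sets as a block (limma voom adjusted p = 0.113).

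The effect of nmd4Δ could be compared between batches. None of the 8 genes differed by edgeR's interaction test, which called 0 of 6058 genes, 69 of them with an unadjusted p under 0.05 and none of the 8 among those. The difference of the RIB4 effect between batch 2 and batch 1 was 0.01 ± 0.0875 on the log2 scale. Most batch 2 libraries matched a batch 1 library, so the batches are not independent. The test could therefore not show replication, and no conclusion is drawn from it.

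The 2 genes examined that move flavins, MCH5 and FLX1, were higher in upf1Δ and ebs1Δ. Of all tested genes, 36.4% were called higher in upf1Δ and 14% in ebs1Δ. MCH5, the plasma membrane transporter that takes up riboflavin, had 61.42, 68.37 and 70.31 CPM in upf1Δ. Its lowest, median and highest values in nmd4Δ were 24.1, 27.91 and 32.4 CPM. It had 36.26, 54.21 and 37.54 CPM in ebs1Δ, against 28.31, 23.41, 25.97, 22.48 and 19.18 CPM in wild type. All upf1Δ and ebs1Δ libraries were above wild type, and nmd4Δ overlapped it. The log2 fold changes were 1.36 ± 0.137 in upf1Δ (edgeR adjusted p = 2.16e-07), 0.19 ± 0.104 in nmd4Δ (adjusted p = 0.177) and 0.72 ± 0.14 in ebs1Δ (adjusted p = 0.00164, and 0.0557 in a fit of only ebs1Δ and wild type). MCH5 was lower in nmd4Δ than in upf1Δ (-1.17 ± 0.127, adjusted p = 6.52e-07) and in ebs1Δ than in upf1Δ (-0.64 ± 0.135, adjusted p = 0.000707).

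FLX1, the mitochondrial FAD carrier, had 29.81, 30.64 and 30.77 CPM in upf1Δ. It spanned 19.98 to 24.52 CPM in nmd4Δ with a median of 22.04 CPM, and had 23.51, 26.28 and 27.12 CPM in ebs1Δ. Wild type libraries had 20.03, 20.35, 20.78, 21.68 and 20.28 CPM. FLX1 rose in upf1Δ (0.54 ± 0.0716, edgeR adjusted p = 2.22e-06) and ebs1Δ (0.29 ± 0.0727, adjusted p = 0.00798), with no overlap with wild type, and was at 0.09 ± 0.0529 in nmd4Δ (adjusted p = 0.191).

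The genes whose profile over the 17 libraries was closest to that of RIB4 lay outside its pathway. Likeness was the root mean square difference of log2 CPM, each gene centred on its mean, over 4826 named genes with a mean of at least 10 CPM. The closest were MDH2 (0.169), URA4 (0.234), URA1 (0.37), ADR1 (0.474) and TPO2 (0.476), against a median gene at 0.969 and a spread of RIB4 itself of 0.979. The other 7 pathway genes were at 0.934 to 1.25. Since RIB4 was chosen for its pattern, this is a ranking and not a test, and the matched libraries weigh the wild type and nmd4Δ values. MDH2 encodes cytosolic malate dehydrogenase, URA4 dihydroorotase, URA1 dihydroorotate dehydrogenase, ADR1 an activator of glucose-repressed genes and TPO2 a polyamine exporter.

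URA1 had 190.5, 251.9 and 180.8 CPM in upf1Δ, 148.7 to 161.2 CPM in nmd4Δ (median 154.2) and 171.9, 212.2 and 201.6 CPM in ebs1Δ, against 1230 to 1322 CPM in wild type. URA4 had 95.48, 110.9 and 92.7 CPM in upf1Δ, 107.5 to 110.4 CPM in nmd4Δ (median 108.7) and 107.3, 112.8 and 110.8 CPM in ebs1Δ, against 349 to 357 CPM in wild type. MDH2 had 67.66 to 90.78 CPM in upf1Δ, 52.34 to 71.27 CPM in nmd4Δ and 51.64 to 60.25 CPM in ebs1Δ, against 271.9 to 336.8 CPM in wild type. As with RIB4, every deletion library was below every wild type library in these genes. The log2 fold changes against wild type in upf1Δ, nmd4Δ and ebs1Δ were -2.03 ± 0.127, -2.34 ± 0.0922 and -2.51 ± 0.13 for MDH2. They were -1.52 ± 0.11, -1.11 ± 0.0775 and -1.16 ± 0.108 for ADR1, and -2.51 ± 0.272, -1.55 ± 0.178 and -1.79 ± 0.258 for TPO2.

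**Figure D4:**
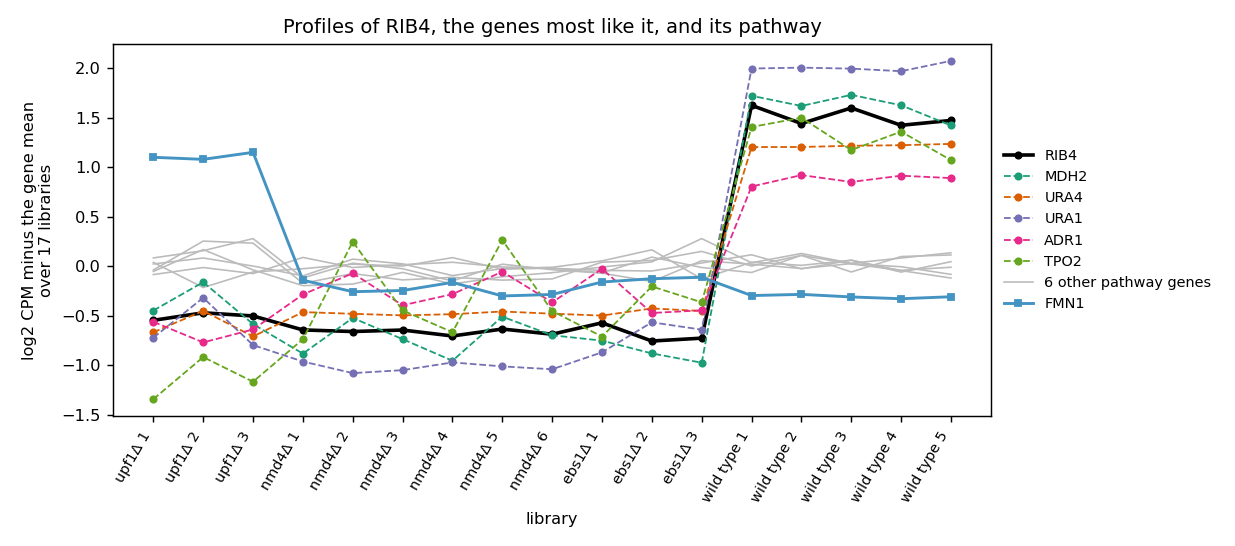
Log2 CPM minus the gene's mean over 17 libraries (y axis) in each library of upf1Δ, nmd4Δ, ebs1Δ and wild type (x axis) for RIB4 (black), the 5 genes closest to it (dashed), FMN1 (blue squares) and the other 6 pathway genes (grey). RIB4 and its 5 closest genes step up in wild type, FMN1 is high in upf1Δ and the grey lines stay near 0.

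Of the pyrimidine route to UMP, a list of 6 genes that includes their activator PPR1, 2 were called higher and 4 lower in upf1Δ, 0 and 4 in nmd4Δ, and 1 and 3 in ebs1Δ. The shares called lower, 66.7%, 66.7% and 50%, stood beside 35.1%, 14.4% and 7.38% of all tested genes, and those called higher, 33.3%, 0% and 16.7%, beside 36.4%, 13.6% and 14%. URA1 and URA4 were already known to share the pattern of RIB4, so the shares called lower are a description and no test. The nmd4Δ call of PPR1 was lost in most alternatives. URA1, itself an FMN enzyme, was lower by log2 fold changes of -2.59 ± 0.0996, -3.03 ± 0.0729 and -2.68 ± 0.1 in upf1Δ, nmd4Δ and ebs1Δ, and URA4 by -1.81 ± 0.0568, -1.69 ± 0.0409 and -1.67 ± 0.0565. URA2, the first enzyme, fell by 0.43 ± 0.0543, 0.30 ± 0.0401 (lost in batch 1 alone) and 0.34 ± 0.0542. The URA3 gene, absent from BY4741, had 0 reads in every library. Ppr1 is a zinc cluster protein that activates URA1 and URA4 when pyrimidines are scarce, and its sites are known to carry CGG and CCG separated by 6 bases.

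The promoter windows of RIB4, URA1 and URA4 are shown because these letters occur in all 3, while no other gene of the riboflavin set holds them. Windows run from 250 bases before to 50 bases after the annotated coding start in the RefSeq annotation of build R64 (sacCer3), at chrXV:55055-55354 (- strand) for RIB4, chrXI:24965-25264 (+ strand) for URA1 and chrXII:963535-963834 (+ strand) for URA4. They are printed 5′ to 3′ on the gene's strand, with capitals for CGG and CCG separated by any 6 bases, and in URA4 also for the 6 letters GAGTCA, the reverse complement of TGACTC.
RIB4: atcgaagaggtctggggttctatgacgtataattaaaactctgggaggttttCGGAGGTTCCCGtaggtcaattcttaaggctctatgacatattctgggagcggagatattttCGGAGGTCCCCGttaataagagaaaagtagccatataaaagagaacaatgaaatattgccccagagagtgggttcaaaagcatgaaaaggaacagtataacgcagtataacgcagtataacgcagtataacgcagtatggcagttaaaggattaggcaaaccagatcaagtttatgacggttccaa
URA1: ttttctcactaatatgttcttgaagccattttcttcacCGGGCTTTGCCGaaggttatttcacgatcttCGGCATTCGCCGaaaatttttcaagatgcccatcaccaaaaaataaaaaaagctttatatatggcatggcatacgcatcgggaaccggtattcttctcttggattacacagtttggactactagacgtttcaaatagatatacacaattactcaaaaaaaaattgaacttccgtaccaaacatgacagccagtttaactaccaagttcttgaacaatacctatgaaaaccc
URA4: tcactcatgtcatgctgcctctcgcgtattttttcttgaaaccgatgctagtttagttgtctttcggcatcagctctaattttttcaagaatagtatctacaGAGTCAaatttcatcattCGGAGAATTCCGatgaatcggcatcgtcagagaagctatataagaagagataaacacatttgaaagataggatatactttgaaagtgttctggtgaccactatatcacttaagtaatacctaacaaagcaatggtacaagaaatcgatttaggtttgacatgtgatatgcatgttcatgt

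In RIB4 the matches are CGGAGGTTCCCG, 198 bases before the start, and CGGAGGTCCCCG, 136 bases before it. In URA1 they are CGGGCTTTGCCG and CGGCATTCGCCG, 212 and 181 bases before the start, and in URA4 CGGAGAATTCCG, 130 bases before it. Both strands of 6001 windows were searched. The letters were in 75 of them (1.25%), and only 2 windows (0.0333%), those of RIB4 and URA1, held more than 1 match. The letters were chosen with RIB4, URA1 and URA4 known to be low, so these shares are a description and no test. They were in none of the windows of the other 7 riboflavin and flavin genes, MDH2, ADR1 and TPO2. A match is a run of letters and no measure of binding, and a window without one says nothing of the factor.

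Of the 75 genes with a match, 73 were tested, and 3 (URA1, RIB4 and URA4) were lower by 2-fold or more in all 3 deletions. Since these 3 were known to be low when the letters were chosen for the search, their count restates that choice and supports nothing. No further gene with a match was lower by 2-fold in any deletion. Among the 70 tested genes with a match outside RIB4 and the pyrimidine list, 25 were called higher and 29 lower in upf1Δ, 6 and 15 in nmd4Δ, and 6 and 17 in ebs1Δ. Their median log2 fold changes were -0.12, -0.06 and -0.08, beside -0.02, -0.001 and -0.006 over all tested genes. The 29, 15 and 17 called lower are 41.4%, 21.4% and 24.3% of the 70, beside 35.1%, 14.4% and 7.38% of all tested genes. The 25, 6 and 6 called higher are 35.7%, 8.57% and 8.57%, beside 36.4%, 13.6% and 14% of all tested genes. With batch 1 alone the 15 called lower in nmd4Δ became 2, and the 17 in ebs1Δ became 9. Calls over all genes also became fewer in that fit, with counts given below.

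**Figure D5:**
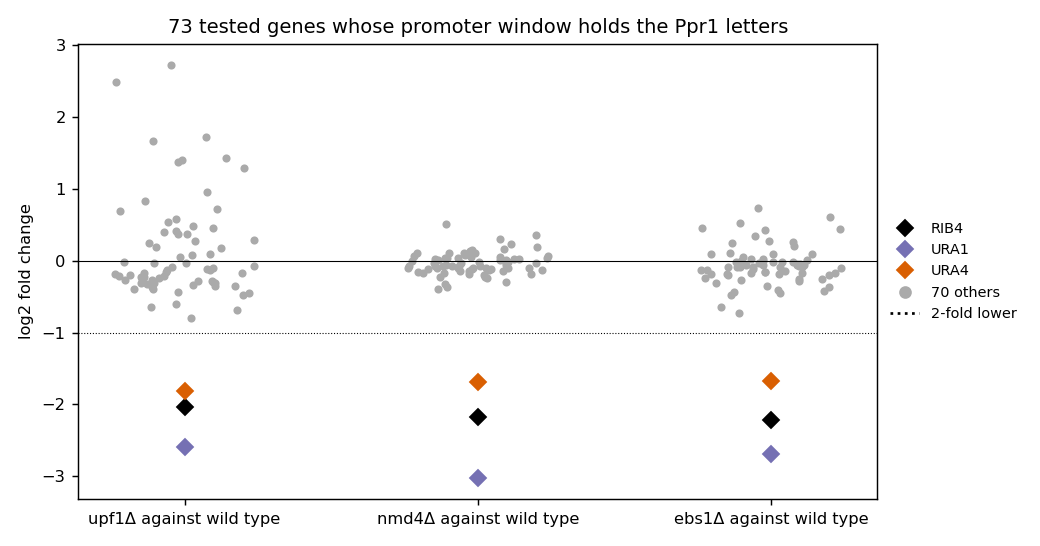
Log2 fold change against wild type (y axis) in upf1Δ, nmd4Δ and ebs1Δ of the 73 tested genes whose promoter window holds CGG and CCG separated by 6 bases; diamonds are RIB4, URA1 and URA4, grey points are the other 70, spread sideways for legibility, and the dotted line marks 2-fold lower. The 3 diamonds, known to be low when the letters were chosen, lie below the line in each comparison and no grey point does.

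The genes next to RIB4 on chromosome XV did not share its size of change. RIB4 lies at chrXV:54595-55104 on the minus strand. NOP8, a ribosome assembly factor gene that converges on it with 42 bases between the coding regions, fell by 0.34 ± 0.101 on the log2 scale in upf1Δ (edgeR adjusted p = 0.00562) and by 0.33 ± 0.0731 in nmd4Δ (adjusted p = 0.00362, and 0.0794 with matched libraries summed), and was at -0.01 ± 0.0999 in ebs1Δ. RRP40, an exosome gene that diverges from RIB4 with 453 bases between them, was at -0.09 ± 0.0686, -0.13 ± 0.0505 and -0.03 ± 0.0687 and was not called. CTR9 fell by 0.45 ± 0.0597 in upf1Δ and 0.14 ± 0.0439 in nmd4Δ. PPM2 rose by 0.39 ± 0.146 in upf1Δ and 0.46 ± 0.146 in ebs1Δ. The nmd4Δ calls of NOP8 and CTR9 and both calls of PPM2 were lost in batch 1 alone.

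The substrates and users of the pathway were counted in lists. Of 51 genes for proteins that carry FMN or FAD, 12 were called higher and 21 lower in upf1Δ, 4 and 8 in nmd4Δ, and 4 and 5 in ebs1Δ, with median log2 fold changes of -0.12, 0.03 and -0.05. The shares called lower, 41.2%, 15.7% and 9.8%, stood beside 35.1%, 14.4% and 7.38% of all tested genes, and those called higher, 23.5%, 7.84% and 7.84%, beside 36.4%, 13.6% and 14%. Without URA1, already known to be low, the shares called lower were 40%, 14% and 8%. After URA1, the members named by the rule of largest change were FRE2, a ferric reductase (2.23 ± 0.267 in upf1Δ), AIF1 (1.41 ± 0.0406 in upf1Δ and 0.39 ± 0.0413 in ebs1Δ), YHB1, the flavohemoglobin (1.36 ± 0.0933, 0.96 ± 0.0706 and 1.17 ± 0.0932), and OYE3 (0.56 ± 0.156 in ebs1Δ, lost in batch 1 alone), all of which rose. In nmd4Δ CYB2, the flavin-containing lactate dehydrogenase, fell by 0.58 ± 0.0762, and NDE2 by 0.53 ± 0.16 (edgeR adjusted p = 0.021, lost in batch 1 alone). In nmd4Δ the 8 called lower became 2 when matched libraries were summed.

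Of 15 genes that lead from purine synthesis to GTP, 2 were called higher and 10 lower in upf1Δ, and 2 and 1 in both nmd4Δ and ebs1Δ. The shares called lower were 66.7% in upf1Δ and 6.67% in nmd4Δ and ebs1Δ, beside 35.1%, 14.4% and 7.38% of all tested genes. Those called higher were 13.3% in each, beside 36.4%, 13.6% and 14%. In upf1Δ the largest changes were IMD4 (0.77 ± 0.0719) and ADE8 (0.57 ± 0.0531), which rose, and ADE16 (-0.39 ± 0.0551) and ADE13 (-0.34 ± 0.0595), which fell. The IMD genes are related copies, so reads could be split among them. In nmd4Δ IMD2 (0.70 ± 0.182) and ADE8 (0.12 ± 0.0397) were called higher and ADE4 (-0.16 ± 0.0518) lower, and all 3 calls ended with batch 1 alone. In ebs1Δ IMD4 (0.27 ± 0.072) and ADE8 (0.17 ± 0.0535) were called higher and ADE2 (-0.19 ± 0.0646) lower, and these calls also ended with batch 1 alone.

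Of 10 pentose phosphate genes, the source of ribulose 5-phosphate, 1 was called higher and 2 lower in upf1Δ, 1 and 0 in nmd4Δ, and 0 and 3 in ebs1Δ. Of all tested genes, 36.4% were called higher and 35.1% lower in upf1Δ, 13.6% and 14.4% in nmd4Δ, and 14% and 7.38% in ebs1Δ. GND2, the minor phosphogluconate dehydrogenase, rose in upf1Δ (1.46 ± 0.139). TKL1 and GND1 fell in upf1Δ (-0.37 ± 0.0926 and -0.32 ± 0.102) and in ebs1Δ (-0.35 ± 0.0925 and -0.30 ± 0.102), SOL4 fell in ebs1Δ (-0.79 ± 0.217), and ZWF1 rose in nmd4Δ (0.21 ± 0.0688, lost with matched libraries summed). The fall of GND1 in upf1Δ was lost without wild type replicate 1. The ebs1Δ calls of the 3 genes were lost in a fit of only ebs1Δ and wild type (adjusted p = 0.0791 for TKL1, 0.134 for GND1 and 0.106 for SOL4).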

How the data were processed

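The authors deposited raw counts of reads per gene for 17 poly(A) libraries made with a directional kit. Per the submitters' processing notes, STAR 2.7.11a placed the reads on sacCer3 and featureCounts (Subread 2.0.5) counted them. Their annotation, strand setting and rule for multiply placed reads were not given in the sources used here, and reads antisense to a gene may be counted with it. Of the 6692 identifiers, 6008 are in the RefSeq annotation of R64, and overlap with the other 684 was not examined.

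Counts were fitted in R 4.3.3 with edgeR 4.0.16 (filterByExpr, TMM, robust quasi-likelihood, terms for genotype and batch, 5 coefficients, 12 residual degrees of freedom). Two-sided p-values were adjusted by Benjamini-Hochberg over 6162 genes, and a gene was called under 0.05. The SE is the log2 fold change over the square root of F. Levels are CPM without batch correction, and log CPM used a prior count of 2. The p-values reflect library-to-library spread alone, which may be technical.

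The members, lists and tests were chosen with earlier results of these data known. Named genes are the members, MCH5, FLX1, up to 4 called genes per list (those of largest change), the neighbours of RIB4, the 5 genes most like it and the deleted genes. The neighbours of FMN1 were added after its values were seen.

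Alternatives left out each library, the low-count filter, the batch term or the robust fit, used DESeq2 1.42.0 or its size factors, took each batch by itself or only the genotypes compared, added the replicate number as a block, put matched sets into limma 3.58.1 voom as a block, or summed matched libraries. The scripts were tested on simulated data.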

Additional observations from a re-analysis of the deposited data

How the results depend on the processing

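The 48 log2 fold changes of the 8 genes were recomputed under 27 or 28 alternatives each, which gave 1304 values. Of these, 1220 kept the direction and side of the threshold, 66 lost a call, 18 gained one and 0 reversed. RIB4 against wild type spanned -2.10 to -1.99 in upf1Δ, -2.19 to -2.15 in nmd4Δ and -2.27 to -2.17 in ebs1Δ, and FMN1 in upf1Δ 1.35 to 1.42. Counts of the small calls moved. Apart from RIB4, the 2 higher in upf1Δ became 1 in batch 1 alone or with only the genotypes compared (1 to 3 leaving out a library), and the 0 lower became 1 with DESeq2 (0 to 1). The 2 lower in nmd4Δ became 0 in batch 1 alone or with matched libraries summed, and 1 in batch 2 alone or with voom and matched sets as a block (1 to 2). The 1 higher in ebs1Δ became 0 in batch 1 alone, with only the genotypes compared or with the replicate block (0 to 1). In nmd4Δ against upf1Δ, the 5 lower became 3 with DESeq2, its scaling, batch 1 alone or matched libraries summed (2 to 5), and the 0 higher became 1 with DESeq2 or its scaling (0 to 1). In ebs1Δ against upf1Δ, the 3 lower became 1 with only the genotypes compared (1 to 4), and the 0 higher spanned 0 to 1. In nmd4Δ against ebs1Δ, the 2 lower became 0 in batch 1 alone and 1 with the voom block or summed libraries (0 to 2). The cause was not tested, except that batch 1 alone and fits of fewer libraries have fewer samples.

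Over all genes, the 889 lower in nmd4Δ became 43 in batch 1 alone, 449 in batch 2 alone, 266 with the voom block and 114 with summed libraries, and the 836 higher became 89, 418, 250 and 267. The 455 lower in ebs1Δ became 158 in batch 1 alone and 134 with only the genotypes compared, and the 863 higher became 541 and 481. In nmd4Δ against ebs1Δ, the 986 lower became 412 in batch 1 alone and 624 with the voom block, and the 617 higher became 204 in batch 1 alone and 382 summed.

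The labels do not say that a replicate number is shared across genotypes. In batch 1, same-numbered pairs had residual correlations of -0.082 to 0.51, 9 of 15 above 0.1, and differently numbered pairs of -0.63 to 0.41, and 7 of 11 libraries correlated best with one of their own number. The libraries were therefore not taken as paired, though these values leave a partial pairing possible. With the replicate block, FMN1 in ebs1Δ had an edgeR adjusted p of 0.054. No library of the 16 groups checked, the 8 genes in nmd4Δ and in wild type, lay outside Dixon's limit. That limit uses the gap to the nearest library, so it could miss a deviating pair of matched libraries. The upf1Δ and ebs1Δ groups, with 3 libraries each, were not checked. The lowest count of any member in a library was 584 reads (RIB7), and the part of depth in these values was not tested.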

Other observations

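The promoter windows were also searched for TGACTC on both strands, the core bound by Gcn4 and Bas1, which occurs in 479 of 6001 windows (7.98%). Among the 8 riboflavin and flavin genes only the window of RIB1 held it, 48 bases before the coding start, and RIB1 was not called in any deletion. FLX1 held 1 match and URA10 held 2. Of the 471 tested genes with a match, 173 were called higher and 162 lower in upf1Δ, 50 and 68 in nmd4Δ, and 55 and 31 in ebs1Δ. These shares, 36.7% and 34.4%, 10.6% and 14.4%, and 11.7% and 6.58%, were close to those of all tested genes, 36.4% and 35.1%, 13.6% and 14.4%, and 14% and 7.38%. The median log2 fold changes were -0.03, 0.004 and -0.01.

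URA10, the minor orotate phosphoribosyltransferase gene, moved in upf1Δ in the same direction as FMN1 and MCH5. It averaged 55.89 ± 3.71 CPM in upf1Δ, 11.31 ± 0.708 CPM in nmd4Δ, 11.58 ± 0.732 CPM in ebs1Δ and 10.7 ± 0.181 CPM in wild type (SD, n = 3 each). Its log2 fold change in upf1Δ was 2.34 ± 0.0711 (edgeR adjusted p = 8.13e-16). PPR1 rose in upf1Δ by 0.42 ± 0.0868 (edgeR adjusted p = 0.000317) and in ebs1Δ by 0.30 ± 0.0875 (adjusted p = 0.0184), and fell in nmd4Δ by 0.18 ± 0.0645 (adjusted p = 0.0485, lost in 21 of 28 alternatives).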
